A study of Mus musculus with 19 samples.

Results

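A set of 10 genes of the bone morphogenetic protein (BMP) pathway was followed across mouse embryonic lens, tooth germ and whole body: the ligands Bmp2, Bmp4 and Bmp7, the type I receptors Bmpr1a and Bmpr1b, the inhibitory Smads Smad6 and Smad7, and the target genes Id1, Id2 and Id3. They were taken by symbol, as 10 of the 18193 genes that have a probe set naming no other gene. Each was read by its main probe set, the one with the highest mean log2 signal over all arrays, and the other probe sets of a gene are given where they differ. Bmp2, Bmp4, Smad6, Id1 and Id3 have only 1 probe set each, so no other probe set could be set beside theirs. All 10 passed the filter on dim probe sets, and 13320 genes were tested in all. Bmpr1b passed its level on whole-body arrays only, Bmp2 on no lens array and Smad6 on no tooth-series array. Each was thus admitted through groups where it is high. The lower calls of Bmpr1b and Bmp2 against body are to be read with that in mind. So is the lower call of Smad6 in the tooth-series body.

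BMP ligands are secreted proteins that bind pairs of type I and type II receptor kinases, which phosphorylate Smad1, Smad5 and Smad9. These enter the nucleus with Smad4 and act on target genes, among them the Id genes, whose products bind and hold back basic helix-loop-helix transcription factors, and Smad6 and Smad7, which feed back on the receptors. In the mouse eye, Bmp4 and Bmp7 are known to be needed for lens induction, and in the tooth Bmp4 is a known signal between dental epithelium and mesenchyme.

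The arrays measured total RNA from wild-type ICR embryos, with no treatment or transgene in any group. The lens groups were microdissected lens, taken at E10.5 (3 arrays), then E11.5 (3 arrays), then E12.5 (3 arrays), and set against whole embryonic body labelled E10.5 to E12.5 (4 arrays). Tooth germ at E13.5 (3 arrays) was set against its own whole body, labelled E11.5 to E13.5 (3 arrays). The purpose stated for the series is to find genes enriched in lens or tooth. The labels do not say whether the arrays of a group came from separate litters or pools, or whether a body array holds 1 stage or several, so p-values cover array-to-array spread alone, and precision is bounded by having 3 or 4 arrays a group.

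Some properties of the arrays bear on every value below. The control transcripts showed far more signal at the 3′ than at the 5′ end in the tooth series: the beta-actin difference was 4.22 to 5.05 log2 units on its 6 arrays, against 0.21 to 0.48 on the 13 arrays of the lens series, and the Gapdh difference was 2.82 to 4.08 against -0.10 to 0.05. Within the tooth series the beta-actin difference was 4.78 to 5.05 in tooth germ and 4.22 to 4.47 in body, and the Gapdh difference was 2.82 to 3.13 in tooth germ and 3.84 to 4.08 in body, so neither overlapped. Bacterial spike-in signal split the lens series into 6 arrays at 11.14 to 12.46 and 7 arrays at 9.59 to 10.30. Each lens stage and the body had arrays on both sides. The high set held only replicate 1 of E11.5 lens and only replicate 1 of E12.5 lens. The low set held only replicate 3 of E10.5 lens. A value within a set can therefore rest on 1 array of a stage. In the tooth series the spike-in split coincided with tooth germ against body, so the 2 cannot be told apart there. The lens markers Cryaa, Pax6, Prox1, Foxe3 and Maf were called higher than in body at all 3 lens stages, 5 of 5 each time. Of 4 tested pigment markers 3 were also called higher and 1 lower at each stage, and of 4 neural retina markers 2 higher and 2 lower. Of 6 macrophage markers 4 were higher and 1 lower at E10.5, and 2 higher and 0 lower at each later stage. In tooth germ the 4 tested dental epithelium markers and the 5 dental mesenchyme markers were called higher than in body. In tissue of mixed cells, fewer cells of a type and less RNA per cell cannot be told apart.

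**Figure D1:**
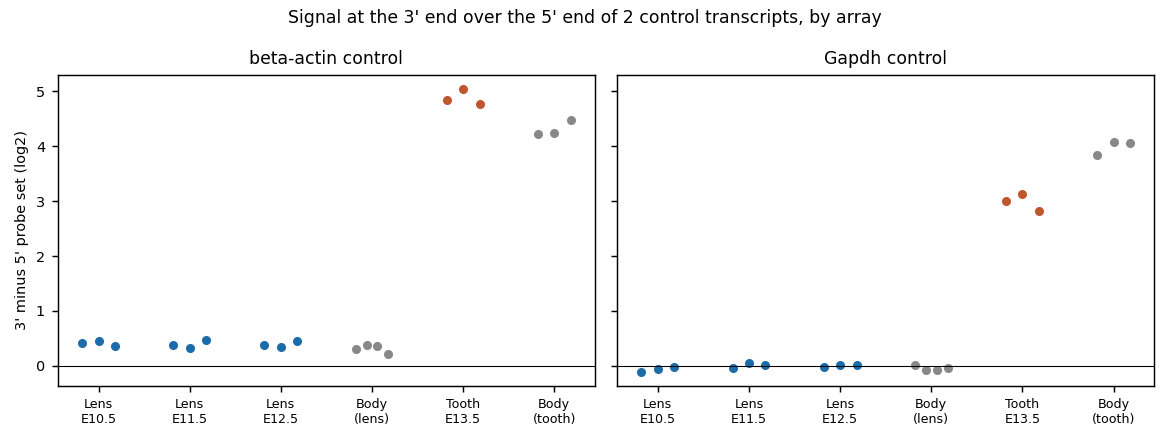
Signal of the 3′ probe set minus that of the 5′ probe set (log2) for the beta-actin and Gapdh controls, 1 point per array, by group. The 6 tooth-series arrays lie between 2.82 and 5.05, and the 13 lens-series arrays between -0.10 and 0.48.

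In lens against whole body, 5 of the 10 genes were called at the earliest stage and 7 at each of the later ones, at an adjusted p under 0.05 in limma. The E10.5 calls were 2 higher and 3 lower in lens, and of all tested genes 32.6% were called, 13.5% higher and 19.1% lower. The E11.5 calls were 2 higher and 5 lower, against 36.9% of all tested genes, 14.7% higher and 22.3% lower. The E12.5 calls were 1 higher and 6 lower, against 43.3%, 16.6% higher and 26.7% lower. Each stage had 7 genes of the 10 whose lens arrays lay wholly apart from the body arrays, where 40.4% of all tested genes did so for E10.5, 38.3% for E11.5 and 49.1% for E12.5. The median difference of the 10 genes was -0.29, -0.36 and -0.64 log2 units at the 3 stages, beside -0.0097, -0.025 and -0.049 over all tested genes. Bmp2, Bmp4 and Bmpr1b were lower at each stage. The 3 comparisons share the same 4 body arrays, so they are not independent of one another.

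**Figure D2:**
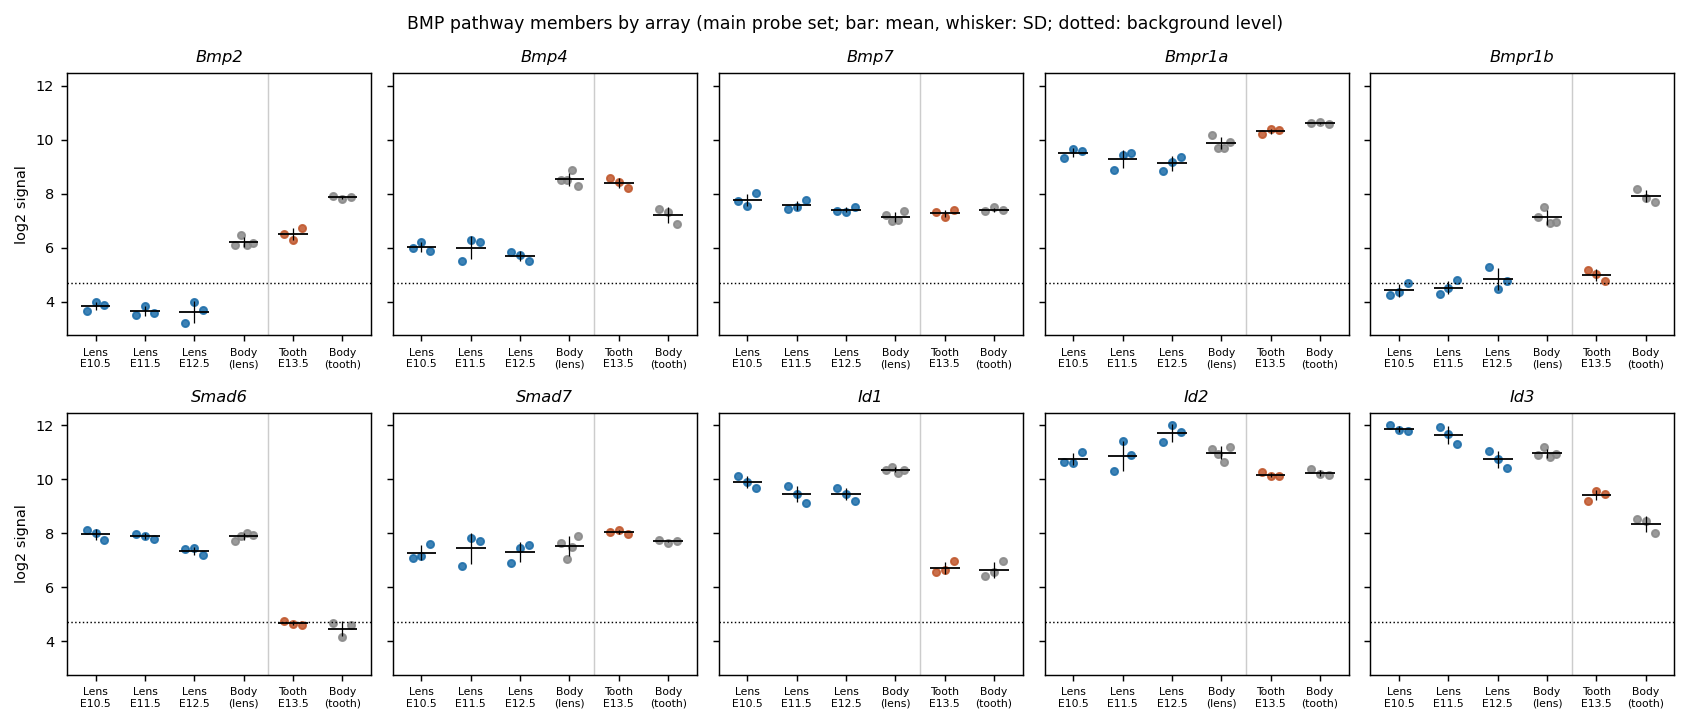
Log2 signal of the main probe set of each gene on every array, by group, with the mean (bar), SD (whisker) and the background level of 4.71 (dotted line). Bmp2 lies below the background level on all 9 lens arrays, and the 3 arrays of Smad6 in E12.5 lens, at 7.18 to 7.43, lie below the 4 of its body.

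Bmp2, a ligand of BMP receptors, was not well above background in any lens array. Its log2 signal was 3.67, 3.99 and 3.88 in E10.5 lens, 3.50, 3.85 and 3.60 in E11.5 lens and 3.20, 3.98 and 3.68 in E12.5 lens, against 6.11, 6.47, 6.09 and 6.17 in whole body. All 9 lens arrays lay below the background level of 4.71, the 95th percentile of the empty control probe sets, and all 4 body arrays lay above it. Set against that level, Bmp2 was at least 2.84-fold lower in lens than in body at each stage (measured log2 differences -2.37, -2.56 and -2.59, adjusted p at most 1.11e-09 in limma). Within the arrays of high or of low spike-in signal the measured differences ran from -3.08 to -2.26.

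Bmp4, the ligand known from lens induction and tooth initiation, was lower in lens and higher in tooth germ than in the matching body. Its log2 signal was 5.97, 6.23 and 5.87 in E10.5 lens, 5.51, 6.30 and 6.20 in E11.5 lens and 5.84, 5.75 and 5.50 in E12.5 lens, against 8.49, 8.50, 8.87 and 8.30 in body. No lens array reached the lowest body array, and every lens array lay above background. The differences were -2.52, -2.54 and -2.84 (SE 0.19 each, adjusted p at most 3.21e-09), or 5.72-, 5.80- and 7.18-fold lower in lens, and ran from -3.18 to -2.14 within the spike-in sets. Of the 7 mesenchyme markers, 6, 5 and 6 were called lower in lens at the 3 stages and 1, 1 and 0 higher: their summed signal was 12.08 to 12.93 on the lens arrays and 14.29 to 14.50 on the body arrays (log2), and none of the 7 was below background in either. The part of mesenchyme in the Bmp4 difference was not tested.

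Bmp7, also needed for lens induction, was modestly higher in early lens. Its main probe set read 7.74, 7.56 and 8.03 in E10.5 lens and 7.44, 7.52 and 7.76 in E11.5 lens, against 7.21, 6.99, 7.04 and 7.38 in body. Both lens groups lay wholly above the body arrays. The differences were 0.62 ± 0.14 (SE, adjusted p = 0.00131) and 0.42 ± 0.14 (adjusted p = 0.0204), and at E12.5 the difference of 0.25 was not called (adjusted p = 0.147). At E10.5 all 3 probe sets were called higher, by 0.62 to 0.90, while at E11.5 neither of the other 2 was called. The E11.5 call was lost without E11.5 lens replicate 3 (0.33, adjusted p = 0.109) and within the low spike-in set (0.34, adjusted p = 0.0974). It was also lost without body replicate 2 (0.36, adjusted p = 0.0627) and without body replicate 3 (0.38, adjusted p = 0.0525). Within the high spike-in set, with 1 E11.5 lens array, the value was 0.43.

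Bmpr1b, a type I receptor, was lower in lens than in body at each stage. Its main probe set read 4.24, 4.35 and 4.71 in E10.5 lens, 4.29, 4.50 and 4.79 in E11.5 lens and 5.30, 4.46 and 4.78 in E12.5 lens, against 7.14, 7.53, 6.91 and 6.94 in body. The lens arrays lay near background, below it on 2, 2 and 1 of 3 arrays at the 3 stages, and no lens array overlapped the body arrays. The differences were -2.70, -2.60 and -2.28 (SE 0.20 each, adjusted p at most 2.2e-08), and ran from -2.93 to -1.92 within the spike-in sets. A second tested probe set of the gene, 1422872_at, was lower by smaller amounts of -0.79 and -0.73 at E10.5 and E11.5, and its -0.40 at E12.5 was not called (adjusted p = 0.0933).

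Bmpr1a, the other type I receptor, was called lower in lens by its main probe set, and by no other. That probe set read 9.34, 9.66 and 9.59 in E10.5 lens, 8.90, 9.44 and 9.51 in E11.5 lens and 8.83, 9.18 and 9.36 in E12.5 lens, against 10.18, 9.70, 9.70 and 9.92 in body. The lens arrays lay below the body arrays at all 3 stages. The E11.5 difference of -0.59 (adjusted p = 0.00829) and the E12.5 difference of -0.75 (adjusted p = 0.00105) were called, and the -0.34 at E10.5 was not (adjusted p = 0.127). None of the other 4 tested probe sets of Bmpr1a was called at any lens stage against body, and 1425493_at had differences of 0.059 and 0.0471 at E11.5 and E12.5. Without E11.5 lens replicate 1 the E11.5 value was -0.40 (adjusted p = 0.0655).

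**Figure D3:**
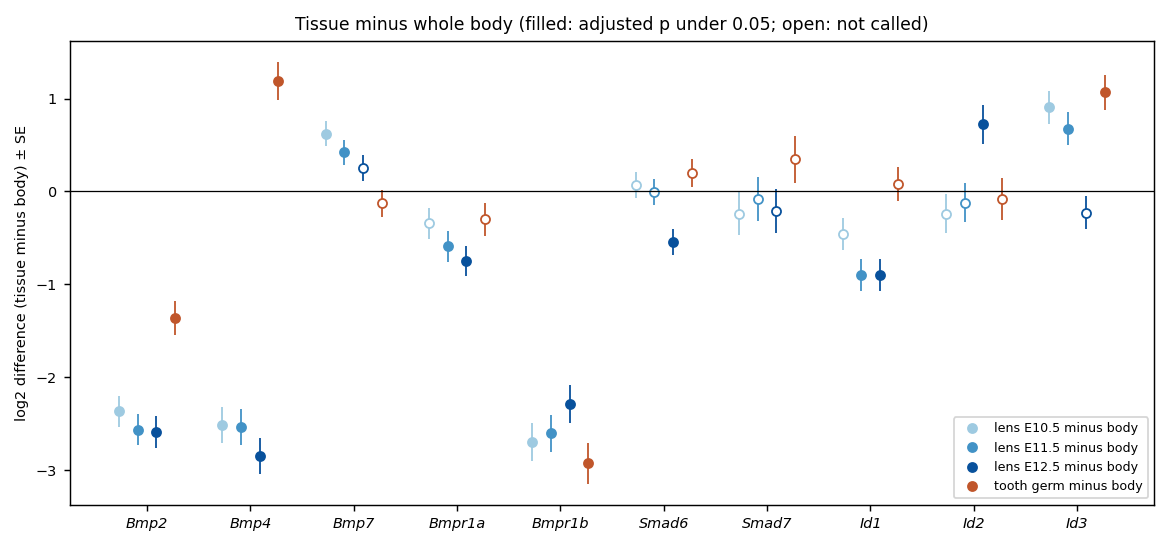
Log2 difference (tissue minus whole body) with its SE for the 10 genes, at the 3 lens stages and in tooth germ, with called differences filled and the others open. Bmp4 is at -2.84 in E12.5 lens and at 1.19 in tooth germ, while Bmp2 and Bmpr1b are below 0 in all 4 comparisons.

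Smad6, which blocks BMP receptor signalling and is itself a BMP target, was lower in lens at the last stage. Its log2 signal was 8.12, 8.01 and 7.74 in E10.5 lens, 7.98, 7.89 and 7.77 in E11.5 lens and 7.43, 7.43 and 7.18 in E12.5 lens, against 7.71, 7.88, 8.003 and 7.95 in body. The E12.5 arrays lay below all body arrays and below all arrays of the earlier lens stages, which overlapped the body. The difference from body was -0.54 ± 0.14 at E12.5 (SE, adjusted p = 0.00394). It was -0.51 within the high spike-in set, with 1 E12.5 lens array, and -0.53 (adjusted p = 0.0194) within the low set. Smad7, the other inhibitory Smad, read 6.77 to 7.81 over the 9 lens arrays and 7.04 to 7.91 over the body arrays, and its main probe set was called in no lens comparison. Its other probe set, 1443771_x_at, was called lower at E11.5 (-1.45, adjusted p = 0.0337), where it read 2.79, 5.44 and 5.29 in lens against 6.87, 6.03, 5.29 and 5.64 in body.

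The Id genes did not move together. Id1 read 10.11, 9.89 and 9.67 in E10.5 lens, 9.75, 9.46 and 9.13 in E11.5 lens and 9.66, 9.46 and 9.21 in E12.5 lens, against 10.35, 10.46, 10.24 and 10.33 in body. Every lens array lay below every body array. The differences at E11.5 and E12.5 were -0.90 each (adjusted p = 0.000381 and 0.00028), or 1.86- and 1.87-fold lower in lens, and the -0.45 at E10.5 was not called (adjusted p = 0.0517, with calls in 8 of the alternative analyses). Within the high spike-in set, with 1 E11.5 lens array, the E11.5 value was -0.60, and within the low set it was -1.04 (adjusted p = 0.000957).

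Id3 was higher than body in early lens and was not called at E12.5. It read 12.0004, 11.81 and 11.78 in E10.5 lens, 11.95, 11.66 and 11.29 in E11.5 lens and 11.03, 10.74 and 10.42 in E12.5 lens, against 10.90, 11.20, 10.82 and 10.92 in body. The first 2 stages lay wholly above the body arrays and the third overlapped them. The differences were 0.90 ± 0.18 (adjusted p = 0.000503) and 0.68 ± 0.18 (SE, adjusted p = 0.00541), against -0.23 at E12.5 (adjusted p = 0.324), and the called ones ran from 0.57 to 0.94 within the spike-in sets.

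Id2 was called higher than body at E12.5, and not at the earlier stages (-0.24, adjusted p = 0.444, and -0.12, adjusted p = 0.7). Its main probe set read 10.62, 10.60 and 11.01 in E10.5 lens, 10.29, 11.40 and 10.90 in E11.5 lens and 11.37, 12.01 and 11.73 in E12.5 lens, against 11.13, 10.94, 10.65 and 11.21 in body. At E12.5 the lens lay wholly above the body, by 0.72 ± 0.21 (SE, adjusted p = 0.0092), and the probe set 1422537_a_at gave 0.98 (adjusted p = 5.19e-05). Without E12.5 lens replicate 2 the main value was 0.57 (adjusted p = 0.0649). Within the high spike-in set, with 1 E12.5 lens array, it was 0.58, and within the low set 0.70 (adjusted p = 0.0144).

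Across the lens stages, Id3 and Smad6 fell and Id2 rose. Between E11.5 and E10.5 none of the 10 genes was called in limma, beside 4.26% of all tested genes (1.52% higher, 2.74% lower), and 1 of them, Id1, had an unadjusted p under 0.05. The arrays of these stages overlapped for all 10 genes, and did not for 17.5% of all tested genes. Over the 2 days to E12.5, Id2 was higher and Id3 and Smad6 were lower, beside 22.1% of all tested genes called, 8.91% higher and 13.2% lower. They were also the 3 genes called between E12.5 and E11.5, beside 6.46% (3.02% higher, 3.45% lower). The arrays did not overlap for 6 of the 10 genes over the 2 days and for 2 over the second day, beside 38.3% and 19.1% of all tested genes. Id3 changed by -1.13 ± 0.19 over the 2 days (SE, adjusted p = 0.000201), a 2.19-fold fall, and by -0.91 over the second day (adjusted p = 0.00627). Its 2-day value was -0.88 within the high spike-in set, with 1 E12.5 array, and -1.20 within the low set, with 1 E10.5 array. Without E12.5 lens replicate 3 the second-day value was -0.75 (adjusted p = 0.051).

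Id2 rose by 0.96 ± 0.23 over the 2 days (SE, adjusted p = 0.00407), a 1.95-fold difference with no overlap of arrays, and 1422537_a_at gave 0.99 (adjusted p = 0.000298). Over the second day it rose by 0.84 (adjusted p = 0.0295), where 1 E11.5 array at 11.40 lay above the lowest E12.5 array at 11.37. That call was lost without E11.5 replicate 1 (0.56, adjusted p = 0.135) or replicate 3 (0.86, adjusted p = 0.0711), and without E12.5 replicate 2 (0.69, adjusted p = 0.15) or replicate 3 (0.83, adjusted p = 0.103). Smad6 changed by -0.61 ± 0.15 over the 2 days (SE, adjusted p = 0.00569). Within the spike-in sets Smad6 changed by -0.63 (high set, 1 E12.5 array) and -0.43 (low set, 1 E10.5 array). Its second-day value of -0.53 (adjusted p = 0.0379) was not called with the replicate number as a block (adjusted p = 0.0551) or without any 1 of the 6 arrays (-0.59 to -0.45, adjusted p 0.0594 to 0.197). With only the 6 arrays of the second-day comparison in the fit, none of the 10 genes was called.

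Bmp7 did not pass by its main probe set over the 2 days (-0.37, adjusted p = 0.0783), although its E12.5 arrays lay below all E10.5 arrays. Its other 2 probe sets fell by 1.03 (1418910_at, adjusted p = 0.00759) and 1.00 (1432410_a_at, adjusted p = 0.00496). The first of these read 6.92, 6.94 and 6.29 in E12.5 lens, against 7.96, 7.51 and 7.77 in E10.5 lens. Surface ectoderm markers also declined over these stages, with a summed log2 signal of 11.44 to 12.07 in E10.5 lens, 9.51 to 9.75 in E11.5 lens and 8.35 to 8.69 in E12.5 lens, and 5 of 7 called lower at E12.5 than at E10.5. Their part in the changes of Id3, Smad6, Id2 and Bmp7 was not tested.

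**Figure D4:**
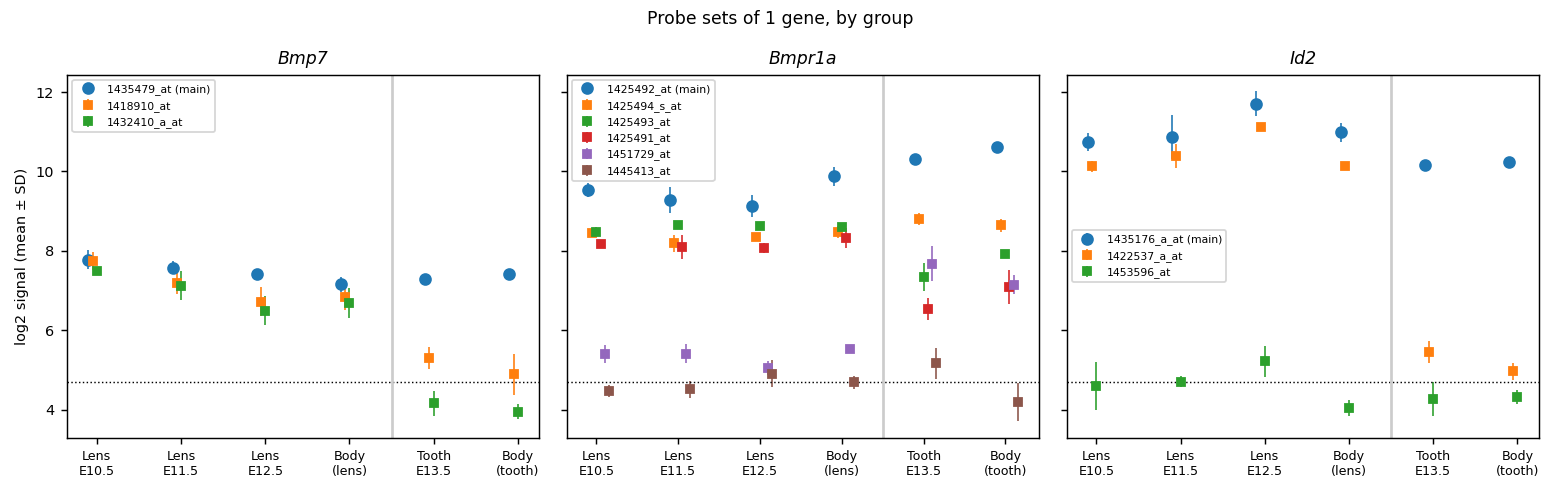
Mean log2 signal and SD of every probe set of Bmp7, Bmpr1a and Id2, by group, with the main probe set as a circle and the background level of 4.71 dotted. The Id2 probe set 1422537_a_at reads 4.76 to 5.77 on the tooth-series arrays, while the main one reads 10.10 to 10.36 there.

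Sequence around the start sites is shown for the 3 genes that changed between lens stages, chosen after their values were seen. The windows come from RefSeq (GRCm38.p6), run from 250 bases before to 50 bases after the annotated start, and are written 5′ to 3′ on the strand of the gene. They are chr4:136143572-136143871 (plus strand) for Id3, chr12:25096043-25096342 (minus strand) for Id2 and chr9:64022010-64022309 (minus strand) for Smad6. Capitals mark GGCGCC, a GC-rich motif read by Smad1 and Smad5, and GTCT or its complement AGAC, the Smad box.
Id3: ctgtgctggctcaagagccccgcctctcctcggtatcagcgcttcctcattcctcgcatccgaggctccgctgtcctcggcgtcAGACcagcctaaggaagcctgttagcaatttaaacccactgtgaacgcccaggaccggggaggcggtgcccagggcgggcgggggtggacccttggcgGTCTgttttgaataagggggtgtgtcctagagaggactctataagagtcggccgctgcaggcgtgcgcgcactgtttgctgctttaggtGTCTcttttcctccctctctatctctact
Id2: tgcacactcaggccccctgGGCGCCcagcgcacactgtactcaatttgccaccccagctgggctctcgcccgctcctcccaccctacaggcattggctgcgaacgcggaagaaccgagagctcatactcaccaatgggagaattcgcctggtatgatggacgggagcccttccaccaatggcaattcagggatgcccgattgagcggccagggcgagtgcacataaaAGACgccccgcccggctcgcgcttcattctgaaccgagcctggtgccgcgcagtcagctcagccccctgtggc
Smad6: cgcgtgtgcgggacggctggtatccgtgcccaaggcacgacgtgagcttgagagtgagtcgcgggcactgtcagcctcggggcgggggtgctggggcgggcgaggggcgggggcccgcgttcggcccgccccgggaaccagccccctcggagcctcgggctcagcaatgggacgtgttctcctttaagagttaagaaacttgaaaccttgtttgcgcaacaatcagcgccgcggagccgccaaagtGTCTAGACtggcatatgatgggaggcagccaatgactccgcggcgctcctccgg
GGCGCC was found once in the Id2 window, at -231 from the start, and not in the Id3 or Smad6 windows, and 11.9% of 32851 RefSeq promoter windows hold it. The Smad box stood 3 times in Id3, once in Id2 and 2 times in Smad6, where both copies are adjacent at the start site, and 88.0% of windows hold at least 1. The E-box CANNTG, which basic helix-loop-helix factors read, was found once in Id2, once in Smad6 and not in Id3, against 72.3% of windows, and TATAAA was in none of the 3, against 13.6%. Both strands were searched, and the 2 marked motifs share no bases here. These matches describe letters in the windows only. Windows were matched for 6 of the 10 genes, and Id1, Bmp2, Bmp7 and Smad7 were not among them.

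In tooth germ, Bmp4 and Id3 were higher than in body, and Bmp2 and Bmpr1b were lower. These 4 of 10 genes, 2 in each direction, stand beside 41.9% of all tested genes called in this comparison, 16.6% higher and 25.3% lower. The arrays did not overlap for 6 of the 10, beside 56.1% of all tested genes, and the median of the 10 was 0.0014 against -0.038 over all genes. Bmp4 read 8.58, 8.42 and 8.20 in tooth germ, against 7.42, 7.34 and 6.88 in body, a difference of 1.19 ± 0.21 (SE, adjusted p = 0.000134) or 2.28-fold. Id3 read 9.20, 9.56 and 9.45 in tooth germ, against 8.53, 8.47 and 8.01 in body, a difference of 1.07 ± 0.19 (SE, adjusted p = 0.000178). For both genes the tooth germ arrays lay wholly above the body arrays.

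Bmp2 read 6.50, 6.27 and 6.72 in tooth germ, against 7.93, 7.79 and 7.87 in body, a difference of -1.36 ± 0.18 (SE, adjusted p = 6.78e-06). Bmpr1b read 5.19, 5.01 and 4.76 in tooth germ, against 8.17, 7.86 and 7.71 in body, a difference of -2.93 ± 0.22 (SE, adjusted p = 4.28e-09). Neither gene's groups overlapped. The other tested probe set of Bmpr1b, 1422872_at, read 4.56 to 4.75 in tooth germ and 4.30 to 4.94 in body and was not called (-0.040, adjusted p = 0.893). Bmpr1a was not called by its main probe set (-0.30, adjusted p = 0.182), while 1425491_at (-0.56) and 1425493_at (-0.58) were called lower and 1451729_at (0.54) higher. Smad6 was below background on 2 of 3 tooth germ arrays and on all 3 body arrays, so no fold is given.

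Smad7 read 8.06, 8.11 and 7.98 in tooth germ, against 7.74, 7.65 and 7.72 in body, and its 0.34 was not called (adjusted p = 0.287). Id1 (0.081), Bmp7 (-0.13) and Id2 (-0.078) were not called by their main probe sets, and the Id2 probe set 1422537_a_at was called higher (0.49, adjusted p = 0.0295). All tooth germ and body values here come from arrays with the strong 3′ excess described above, which itself separated tooth germ from body, and its part in the results was not tested.

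The difference from body was itself set against the difference in tooth germ, for E12.5 lens. Of the 10 genes, 6 differed, 1 with a higher value in lens and 5 with a lower one (39.6% of all tested genes called, 19.2% higher and 20.4% lower). Bmp4 differed by -4.03 ± 0.28 (SE, adjusted p = 2.36e-09), being lower than body in lens and higher than body in tooth germ. Id3 differed by -1.30 (adjusted p = 0.000591), Bmp2 by -1.23 (adjusted p = 0.000576), Id1 by -0.98 (adjusted p = 0.0045), Smad6 by -0.74 (adjusted p = 0.00766) and Id2 by 0.80 (adjusted p = 0.047). The Smad6 value rests on tooth-series arrays at background, and that of Bmp2 on lens arrays below it. The Id2 call was lost on leaving out any 1 of 10 arrays among the 13 (0.65 to 0.85, adjusted p 0.0582 to 0.131). The other tested Id2 probe set, 1422537_a_at, was not called (0.50, adjusted p = 0.104). Bmpr1b, lower than body in both tissues, differed by 0.64 ± 0.30 (SE, adjusted p = 0.0947).

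The 2 body groups differed in 8 of the 10 genes, 3 higher and 5 lower in the tooth-series body, beside 63.6% of all tested genes called, 31.8% higher and 31.8% lower. Their arrays did not overlap for 8 of the 10, beside 65.4% of all tested genes. Smad6 was at least 9.07-fold lower in the tooth-series body than in the lens-series body (adjusted p = 5.59e-13), Id1 differed by -3.71 and Id3 by -2.62. Smad6 passed the level of the filter on no tooth-series array, so its lower call is to be read with that in mind. Probe sets of 1 gene disagreed here: Id2 differed by -0.75 by its main probe set and by -5.18 by 1422537_a_at, and Bmp7 by 0.26 and by -1.95 and -2.73 with its other 2. Bmpr1b was higher by its main probe set (0.78) and lower by 1422872_at (-0.91). Smad7 was called higher by 1443771_x_at (1.97) and was not called by its main probe set (0.19). Bmpr1a was higher by its main probe set (0.74) and by 1451729_at (1.62), and lower by 1425491_at (-1.22) and 1425493_at (-0.66). Series, range of stages and the 3′ excess cannot be told apart, so no level is compared between lens and tooth germ arrays.

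The rest of the pathway was taken from 4 lists of 44 further genes, of which 40 had a probe set and 35 were tested. In lens against body, the E10.5 calls were 2 higher and 15 lower, beside 13.5% and 19.1% of all tested genes (32.6% either way). The E11.5 calls were 2 higher and 16 lower, beside 14.7% and 22.3% (36.9% either way). The E12.5 calls were 4 higher and 18 lower, beside 16.6% and 26.7% (43.3% either way). The medians of the 35 genes were -0.44, -0.40 and -0.35, beside -0.0097, -0.025 and -0.049 over all tested genes. In tooth germ 4 were higher and 4 lower, beside 16.6% and 25.3% of all tested genes (41.9% either way). Their median there was -0.073, against -0.038 over all genes. That total of 8 became 13 with the mean of all probe sets, 14 with only the compared groups fitted and 5 with the stricter filter, without tooth germ replicate 1 or without replicate 3. Between lens stages, 2 were higher and 1 lower on each single day. Of all tested genes, 1.52% were higher and 2.74% lower on the first day (4.26% either way). On the second day 3.02% were higher and 3.45% lower (6.46% either way). Over both days 3 of the 35 were higher and 1 lower, beside 8.91% and 13.2% of all tested genes (22.1% either way). The total of 3 became 5 without E11.5 replicate 1 for the first day, and 1 without E12.5 replicate 2 or 3 for the second. With only the compared groups fitted it was 1 for the first day and 0 for the second. Genes past a 2-fold difference with the strongest changes in each direction are named.

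Bmp5, another BMP ligand, lay near background in lens and was lower than body at each stage, and it was lower in tooth germ too. It passed the level of the filter on no lens array, so its lower calls in lens are to be read with that in mind. It read 4.36, 4.47 and 4.75 in E10.5 lens, against 7.90, 6.90, 6.43 and 8.03 in body (-2.78, adjusted p = 2.11e-07), and 5.97, 6.64 and 5.91 in tooth germ, against 9.88, 9.56 and 9.63 in body (-3.52, adjusted p = 3.89e-08). At E11.5, where all lens arrays were below background, it was at least 6.09-fold lower in lens, and at E12.5 it differed by -2.51. Id4, another Id gene, was 18.3-fold lower at E10.5 (-4.19 ± 0.45, SE, adjusted p = 3.89e-07) and differed by -3.68 and -4.11 at the later stages. Acvr2b, a type II receptor, was higher in E11.5 lens at 9.73, 8.97 and 8.81, against 7.70, 7.96, 7.90 and 8.48 in body (1.16, adjusted p = 0.000325). It was also called higher than body at E10.5 (0.89, adjusted p = 0.00358) and at E12.5 (0.88, adjusted p = 0.00291).

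Among secreted modulators, Bmper, which binds BMPs outside the cell, was higher in E12.5 lens than at the earlier lens stages. It read 5.53, 6.26 and 7.88 in E10.5 lens, 6.46, 8.82 and 8.36 in E11.5 lens and 9.78, 10.10 and 10.01 in E12.5 lens, against 7.89, 7.35, 6.97 and 7.49 in body. The E12.5 lens lay wholly above the body by 2.54 ± 0.46 (SE, adjusted p = 0.000163) and above E10.5 lens by 3.41 (adjusted p = 4.68e-05). It was not called between E11.5 and E10.5. The second-day rise of 2.08 (adjusted p = 0.014) was lost without E11.5 replicate 1 (1.37, adjusted p = 0.0593) or without E12.5 replicate 2 (2.01, adjusted p = 0.0516) or 3 (2.06, adjusted p = 0.0581). Arrays of high spike-in signal read lowest at each lens stage, and E10.5 has more of them than the later stages.

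Sostdc1, an antagonist of BMP and Wnt signalling, fell in lens and was high in tooth germ. It read 6.93, 6.94 and 7.38 in E10.5 lens, 4.94, 5.43 and 5.15 in E11.5 lens and 4.56, 5.0045 and 4.76 in E12.5 lens, a 2-day change of -2.31 ± 0.18 (SE, adjusted p = 4.46e-08). Against the lens-series body its E11.5 difference was -2.35 and its E12.5 difference -2.74. The E12.5 lens arrays lay near the background level of 4.71, so the sizes that use them are not well measured. In tooth germ it read 10.48, 10.59 and 10.37, against 7.02, 6.93 and 6.83 in body, 11.7-fold higher (3.55, adjusted p = 1.85e-11). Surface ectoderm markers moved with it over the first day, with 5 of 7 called lower, and in tooth germ, with 6 of 7 called higher. In tooth germ their summed log2 signal was 12.32 to 12.71, against 10.33 to 10.62 in body. Sostdc1 was not called in E10.5 lens against body (-0.44, adjusted p = 0.0518), where 4 of the 7 markers were called higher and 3 lower. Their part in the Sostdc1 values was not tested. Fst, which binds activins and BMPs, was higher at E11.5 than at E10.5 (1.54, adjusted p = 0.00191) and lower at E12.5 than at E11.5 (-1.26, adjusted p = 0.00696). Pigment markers had a summed log2 signal of 8.67 to 8.90 in E10.5 lens, 9.73 to 10.01 in E11.5 lens and 8.91 to 8.94 in E12.5 lens, with 2 of 4 tested called higher over the first day and 2 lower over the second, and Tyr and Tyrp1 were below background in all 3. Of the 7 mesenchyme markers, 3 were called higher over the first day and 2 lower over the second. Their part in the Fst values was not tested.

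Of the targets and feedback genes, Msx1, a homeobox gene induced by Bmp4 in dental mesenchyme, read 11.11, 11.10 and 10.97 in tooth germ, against 8.66, 8.58 and 8.42 in body (2.51, adjusted p = 1.02e-06). In lens it was lower than body at E10.5 (-2.89, adjusted p = 4.13e-08), E11.5 (-1.87, adjusted p = 1.39e-05) and E12.5 (-1.60, adjusted p = 5.95e-05). It rose by 1.29 over the 2 days (adjusted p = 0.00236) and stayed below body. Tob1, which restrains Smad signalling, rose by 2.06 over the 2 days (adjusted p = 0.00763) and was higher than body at E12.5 (1.89, adjusted p = 0.0042). It read 8.22, 8.28 and 10.02 in E10.5 lens, 7.97, 10.42 and 10.19 in E11.5 lens and 10.08, 11.36 and 11.27 in E12.5 lens, so arrays of each stage differed by more than 1 log2 unit. Its 2-day value was 1.83 within the high spike-in set, with 1 E12.5 array, and 1.29 within the low set, with 1 E10.5 array. Against tooth germ, the E12.5 lens difference of Sostdc1 was lower (-6.30), as were those of Msx1 (-4.11) and Id4 (-3.35). Those of Tob1 (3.15), Bmper (2.004) and Acvr2b (1.33) were higher. Sostdc1 lay near background in E12.5 lens, so the size of its value is not well measured. Between the bodies, Bmp5, Bmpr2 and Smad4 were higher (2.38, 1.07 and 1.02) and Rgma, Rgmb and Ski lower (-2.44, -2.10 and -1.22) in the tooth series. The direction for Rgmb turned with the choice of probe set, to 0.23 with the mean of all its probe sets and 2.70 with the one of largest variance. Rgma passed the level of the filter on no tooth-series array.

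**Figure D5:**
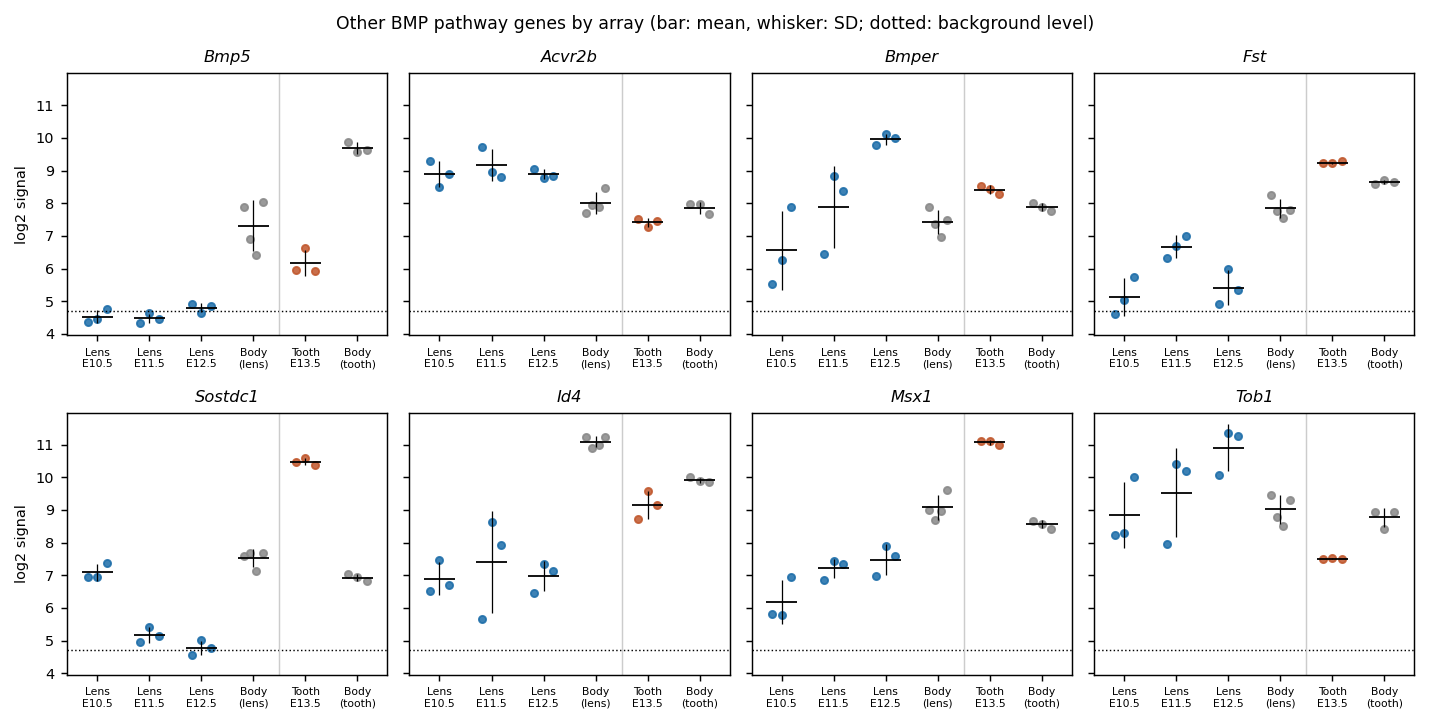
Log2 signal of 8 further BMP pathway genes on every array, by group, with the mean (bar), SD (whisker) and background level of 4.71 (dotted line). Bmper reads 9.78 to 10.10 in E12.5 lens, and Sostdc1 reads 10.37 to 10.59 in tooth germ and 6.83 to 7.02 in the body of that series.

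The genes whose main probe sets followed 4 of the 10 most closely are given as a description. Over the 19 arrays, Pearson's r was highest for Bmp2 with Pcdh8, Amot and Mef2c (0.987 to 0.992, and 0.976 to 0.986 over the 13 lens-series arrays). It was highest for Id1 with Cited4, Gpat4 and Narf (0.983 to 0.985, and 0.727 to 0.868) and for Id3 with Clic1, Aldoa and Bri3bp (0.976 to 0.981, and 0.840 to 0.907). For Smad6 it was highest with Alyref, Ifrd2 and Mdk (0.992 to 0.994, and 0.696 to 0.927). The arrays share the split into 2 series and the difference in 3′ signal between them. Bmp2 lay below background on every lens array, so its r over the 13 arrays rests mainly on lens against body. Smad6 lay near or below background on every tooth-series array, so its r over the 19 arrays rests mainly on the split into series.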

How the data were processed

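RNA from 19 samples was measured on 1 Affymetrix mouse array each. The deposited intensity values, 1 per probe set, come from RMA, per the submitters' processing notes, which also list affy 0.7; no role or order is stated. The file holds them on a linear scale (5.4 to 25043.5, array medians 42.5 to 46.5), although the wording of the gene rule calls them log2, so log2 was taken. Of 45101 probe sets, 34945 name 1 gene, 932 several. A gene was tested where its main probe set passed the median of all values (44.1) on at least 3 arrays. limma 3.58.1 in R 4.3.3 fitted 1 mean per group over all 19 arrays (lmFit, eBayes, two-sided, Benjamini-Hochberg over 13320 genes), and was tested on simulated data. Adjusted p-values of probe sets other than the main ones come from the same fit of 23913 probe sets, adjusted over these. Where a group lay below background on every array, the fold is a bound against the 95th percentile of 27 empty control probe sets (4.71 log2). The named further genes are the largest called changes past 2-fold, up to 3 per direction and comparison, in genes whose arrays do not overlap. The members, lists and tests were chosen with earlier results of these data known. Deviations from the group means correlated between E11.5 and E12.5 lens arrays of the same replicate number (0.40 to 0.64 for the 3 pairs). In both stages replicate 1 had high and replicates 2 and 3 low spike-in signal. A pairing of replicates therefore cannot be told apart from the spike-in split. No other pair of groups had every correlation over 0.1. Alternatives changed the filter, normalization, pseudocount (16), probe set, variance prior, arrays fitted, block and replicates.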

Additional observations from a re-analysis of the deposited data

Results flagged for a closer look

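In the lens-series body, the one group with 4 arrays, 3 probe set values stood apart from the other arrays by more than Dixon's 95% critical value, among 22 groups of values examined. Chance flags about 1 in 20 such groups. The Bmpr1a probe set 1451729_at was low on replicate 3 (5.39), the Bmpr1a probe set 1445413_at was high on replicate 2 (4.93) and the Bmpr1b probe set 1443720_s_at was low on replicate 3 (4.14). None of these is a main probe set.

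The difference from body at E12.5 in lens differed from that in tooth germ for 6 of the 10 genes, by a test of the difference itself in limma, beside 39.6% of all tested genes: Bmp2 (-1.23), Bmp4 (-4.03), Smad6 (-0.74), Id1 (-0.98), Id2 (0.80) and Id3 (-1.30). Bmp2 was below background on every lens array and Smad6 on 2 of 3 tooth germ arrays and all 3 of their body arrays, so the sizes given for them are not well measured. The Id2 call was lost on leaving out any 1 of 10 arrays (0.65 to 0.85, adjusted p 0.0582 to 0.131), and its probe set 1422537_a_at was not called (0.50, adjusted p = 0.104). The beta-actin 3′ excess on these arrays was 4.22 to 5.05 in the tooth series and 0.21 to 0.48 in the lens series, and its part in the differences was not tested. By other probe sets Bmpr1a gave 0.63 (1425493_at) and -1.005 (1451729_at), both called and of opposite sign.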

How the results depend on the processing

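Of 2482 recomputed differences of single genes, 1532 belong to called differences: 1445 kept direction and call, 79 lost the call and 8 changed sign. The other 950 belong to differences that were not called, of which 35 gained a call and 104 changed sign. A stricter filter, a pseudocount of 16 and a variance trend changed no sign. The cause of each change was not tested. Values and counts within a spike-in set can rest on 1 array of a lens stage.

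The count of the 10 genes called between E12.5 and E11.5 lens, 3, became 0 with only the compared groups fitted and 0 within the high spike-in set, and 0 to 2 on leaving out 1 array, with 0 without E12.5 replicate 3. Between E12.5 and E10.5 it became 5 with the spike-in set as a block and 0 within the high set. The count of other pathway genes, 3 between E11.5 and E10.5 lens, became 1 with only the compared groups and 5 within the high set, and 2 to 5 on leaving out 1 array (5 without E11.5 replicate 1). Between E12.5 and E11.5 it was 0 with only the compared groups and 1 to 3 on leaving out 1 array (1 without E12.5 replicate 2 or 3). In tooth germ, 8 became 13 with the mean of all probe sets, 14 with only the compared groups, 5 with the stricter filter, and 5 to 8 on leaving out 1 array (5 without tooth germ replicate 1 or 3).

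With the replicate number as a block, Smad6 gave 0.0141 and Smad7 0.0512 in E11.5 lens minus body, and the count of the 10 genes between E12.5 and E11.5 lens was 2. Body replicate 4 has a number of its own and so drops out of that fit. Elsewhere the block ended no other call of the 10 genes, and Bmp7 gained one between the bodies (0.34, adjusted p = 0.0412). E11.5 and E12.5 lens shared their spike-in sets as well as their replicate numbers, so no pairing of replicates was shown.

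The alternatives that follow changed the sign of the values given. With arrays centred on their median, Id1 gave 0.0123 in E12.5 minus E11.5 lens. With the mean of all probe sets, Id2 gave 0.10 in E10.5 lens minus body, 0.26 in E11.5 lens minus body and 0.12 in tooth germ minus body, Bmp7 gave -0.0225 in E12.5 lens minus body, 0.16 in tooth germ minus body, -0.19 in the lens difference minus the tooth germ difference and -1.47 in tooth-series minus lens-series body. Here Bmpr1b gave -0.0071 in E11.5 minus E10.5 lens, -0.12 in the lens difference minus the tooth germ difference and -0.34 in tooth-series minus lens-series body, Smad7 gave -0.37 in E11.5 minus E10.5 lens, 0.17 in E12.5 minus E11.5 lens and -0.20 in E12.5 minus E10.5 lens. Here Bmpr1a gave 0.0395 in tooth germ minus body, Rgmb gave 0.23 in tooth-series minus lens-series body. With the probe set of largest variance, Id2 gave 0.25 in E11.5 lens minus body and 0.49 in tooth germ minus body, Bmp7 gave -0.19 in E12.5 lens minus body, 0.21 in tooth germ minus body, -0.40 in the lens difference minus the tooth germ difference and -2.73 in tooth-series minus lens-series body. Here Bmpr1a gave 0.0032 in E11.5 minus E10.5 lens and 0.54 in tooth germ minus body, Smad7 gave -0.91 in E11.5 minus E10.5 lens, 0.47 in E12.5 minus E11.5 lens and -0.44 in E12.5 minus E10.5 lens. Here Rgmb gave 2.70 in tooth-series minus lens-series body. After repeated quantile normalization, Smad6 gave 0.042 in E11.5 lens minus body, Id1 gave 0.0169 in E12.5 minus E11.5 lens. Here Id2 gave 0.13 in tooth germ minus body. With the spike-in set as a block, Smad6 gave 0.0223 in E11.5 lens minus body, Smad7 gave -0.0519 in E11.5 minus E10.5 lens and -0.18 in E12.5 minus E10.5 lens. Here Id2 gave -0.0538 in E11.5 minus E10.5 lens. Within the high spike-in set, Smad6 gave 0.0377 in E11.5 lens minus body, Id3 gave 0.0216 in E12.5 lens minus body and 0.0441 in E11.5 minus E10.5 lens. Here Bmpr1b gave -0.01 in E11.5 minus E10.5 lens, Smad7 gave -0.35 in E11.5 minus E10.5 lens, 0.10 in E12.5 minus E11.5 lens and -0.25 in E12.5 minus E10.5 lens. Here Id2 gave -0.32 in E11.5 minus E10.5 lens, Bmp4 gave 0.33 in E12.5 minus E11.5 lens. Within the low spike-in set, Smad6 gave -0.0923 in E10.5 lens minus body and 0.0921 in E11.5 minus E10.5 lens, Smad7 gave 0.0016 in E11.5 lens minus body and -0.0584 in E12.5 minus E10.5 lens. Here Bmp4 gave 0.39 in E11.5 minus E10.5 lens, Bmpr1b gave -0.0609 in E11.5 minus E10.5 lens, -0.0246 in E12.5 minus E11.5 lens and -0.0856 in E12.5 minus E10.5 lens. Here Bmp2 gave 0.11 in E12.5 minus E11.5 lens, Id1 gave 0.0392 in E12.5 minus E11.5 lens.

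Every probe set of the 10 genes that passed the filter was also tested by itself, in a limma fit of 23913 probe sets. This alternative was chosen after seeing the data. In that fit the main Id2 probe set was not called in the lens difference minus the tooth germ difference (0.80, adjusted p = 0.0522). The sign changes by other probe sets follow. By probe set 1418910_at, Bmp7 gave -0.13 in E12.5 lens minus body, 0.42 in tooth germ minus body, -0.54 in the lens difference minus the tooth germ difference and -1.95 in tooth-series minus lens-series body. By probe set 1422537_a_at, Id2 gave 0.25 in E11.5 lens minus body and 0.49 in tooth germ minus body. By probe set 1422872_at, Bmpr1b gave -0.36 in the lens difference minus the tooth germ difference and -0.91 in tooth-series minus lens-series body. By probe set 1425491_at, Bmpr1a gave 0.32 in the lens difference minus the tooth germ difference and -1.22 in tooth-series minus lens-series body. By probe set 1425493_at, Bmpr1a gave 0.059 in E11.5 lens minus body, 0.0471 in E12.5 lens minus body, 0.16 in E11.5 minus E10.5 lens, 0.15 in E12.5 minus E10.5 lens, 0.63 in the lens difference minus the tooth germ difference and -0.66 in tooth-series minus lens-series body. By probe set 1425494_s_at, Bmpr1a gave 0.16 in E12.5 minus E11.5 lens and 0.16 in tooth germ minus body. By probe set 1432410_a_at, Bmp7 gave -0.19 in E12.5 lens minus body, 0.21 in tooth germ minus body, -0.40 in the lens difference minus the tooth germ difference and -2.73 in tooth-series minus lens-series body. By probe set 1443771_x_at, Smad7 gave -0.91 in E11.5 minus E10.5 lens, 0.47 in E12.5 minus E11.5 lens and -0.44 in E12.5 minus E10.5 lens. By probe set 1451729_at, Bmpr1a gave 0.0032 in E11.5 minus E10.5 lens and 0.54 in tooth germ minus body.

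Leaving out 1 array at a time, the values that changed sign ran, for Smad6 -0.0129 to 0.18 (E10.5 lens minus body), Smad6 -0.0638 to 0.0505 (E11.5 lens minus body), Smad7 -0.27 to 0.25 (E11.5 lens minus body) and Id2 -0.39 to 0.17 (E11.5 lens minus body). Likewise they ran, for Smad7 -0.37 to 0.0068 (E12.5 lens minus body), Bmp4 -0.17 to 0.23 (E11.5 minus E10.5 lens), Bmpr1b -0.0404 to 0.23 (E11.5 minus E10.5 lens) and Smad6 -0.18 to 0.0067 (E11.5 minus E10.5 lens). Likewise they ran, for Smad7 -0.0323 to 0.49 (E11.5 minus E10.5 lens), Id2 -0.15 to 0.40 (E11.5 minus E10.5 lens), Bmp2 -0.21 to 0.18 (E12.5 minus E11.5 lens) and Smad7 -0.46 to 0.087 (E12.5 minus E11.5 lens). Likewise they ran, for Id1 -0.16 to 0.15 (E12.5 minus E11.5 lens), Smad7 -0.10 to 0.24 (E12.5 minus E10.5 lens) and Id1 -0.0472 to 0.24 (tooth germ minus body).

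Precision is limited by 3 or 4 arrays a group and by signal near background for Bmp2 and Bmpr1b in lens and Smad6 in the tooth series.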
